A study of Mus musculus with 8 samples.

Results

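Transcripts of the mouse Zfp genes were examined in EO771 cells, a mouse mammary carcinoma line, in 4 groups of 2 RNA-seq libraries each. A gene belonged to the set if its symbol was Zfp with a number and if its mean count over the 8 libraries was at least 10. This gave 62 of the 402 Zfp genes in the count table of 49997 genes, so the members were chosen on the level of their counts over all groups. In 1 experiment, cells received vehicle or 12-HETE, a lipid that 12-lipoxygenase makes from arachidonic acid. In the other, cells were transduced with an empty vector or with a vector for ADAR1 p150, the interferon-inducible isoform of an enzyme that edits adenosine to inosine in double-stranded RNA. The groups all share the EO771 background, and the sources used here do not name the promoter of the ADAR1 p150 vector. The labels do not say whether the replicates were separate cultures, while a legend of the study calls the editing data of these groups independent experiments. The p-values measure only the spread between these libraries.

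Most Zfp genes encode proteins with tandem C2H2 zinc fingers, short folds around a zinc ion that read DNA sequence. The largest subfamily carries an N-terminal KRAB box, which recruits the co-repressor TRIM28 and with it heterochromatin enzymes, and is known for silencing retroelements and imprinted regions. The Zfp symbol is a naming convention, so the set also holds proteins with other kinds of zinc-binding domain or with a role in RNA metabolism.

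The total count per library ran from 1101767 to 1537037, and the Zfp members held between 0.227% and 0.257% of it. Counts of the breast epithelial markers Krt8, Krt18 and Krt19 were between 42 and 150 in each library, whereas Epcam had at most 4 counts and Cdh1 had 0 in every library. Of the markers of other cells, Ptprc, Cd3e and Pdgfrb had at most 1 count, the sums of the 3 immune markers ranged from 10 to 26 and those of the 2 fibroblast markers, nearly all Dcn, from 8 to 58. The sum of the 2 endothelial markers ranged from 0 to 10, and that of Cdh5 moved with the groups, with 9 and 7 counts in the vehicle and 0 in either 12-HETE library, and 4 and 7 counts in the vector and 1 and 2 in the ADAR1 p150 libraries. The part of these markers in the Zfp values was not tested. Adar itself, the check of the overexpression, was counted 181 and 140 times in the ADAR1 p150 libraries and 2 and 8 times in the vector libraries, beside 5 and 5 in the vehicle and 7 and 6 in the 12-HETE libraries.

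The promoters of 3 Zfp genes that the results turn on are printed first, as 300 bases each from RefSeq (GRCm38.p6), with 250 bases before and 50 after the start of the transcript. Zfp185 rose in both experiments, Zfp790 with ADAR1 p150 and Zfp689 with 12-HETE. They lie at chrX:72987089-72987388 on the plus strand, chr7:29815822-29816121 on the plus strand and chr7:127449109-127449408 on the minus strand. Capitals mark matches, on either strand, to an AP-1 site (TGANTCA), a GC box (GGGCGG) or a CCAAT box (CCAAT).
Zfp185: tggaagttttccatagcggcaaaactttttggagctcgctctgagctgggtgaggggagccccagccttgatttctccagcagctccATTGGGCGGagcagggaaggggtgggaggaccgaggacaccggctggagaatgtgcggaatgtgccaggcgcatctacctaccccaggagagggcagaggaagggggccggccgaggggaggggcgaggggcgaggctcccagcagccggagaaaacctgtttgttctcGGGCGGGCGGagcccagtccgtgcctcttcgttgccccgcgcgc
Zfp790: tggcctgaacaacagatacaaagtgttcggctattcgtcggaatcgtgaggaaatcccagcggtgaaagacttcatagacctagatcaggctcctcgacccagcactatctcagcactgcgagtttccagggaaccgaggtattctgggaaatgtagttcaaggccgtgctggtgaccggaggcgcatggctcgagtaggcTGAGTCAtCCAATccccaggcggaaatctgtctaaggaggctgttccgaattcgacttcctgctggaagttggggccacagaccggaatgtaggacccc
Zfp689: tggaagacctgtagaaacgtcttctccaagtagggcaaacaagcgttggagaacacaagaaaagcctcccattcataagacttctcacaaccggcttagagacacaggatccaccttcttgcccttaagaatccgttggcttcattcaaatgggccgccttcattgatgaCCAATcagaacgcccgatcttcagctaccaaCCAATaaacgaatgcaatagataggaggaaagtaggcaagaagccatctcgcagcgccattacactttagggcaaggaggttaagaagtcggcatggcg
The Zfp185 promoter held 3 GC boxes, 2 of which overlap each other, and 1 CCAAT box in reverse that overlaps the other GC box. The Zfp790 promoter held 1 AP-1 site with a CCAAT box just after it, and the Zfp689 promoter held 2 CCAAT boxes. None of these 3 windows matched a TATA box (TATAAA) or an interferon response element (GAAANNGAAA). Of all 32851 promoters in the table, 7.81% held the AP-1 letters, 35.7% the GC box, 37.4% the CCAAT box, 13.6% the TATA box and 3.44% the interferon element. The table had 69 promoters for 48 of the 62 members. Of these 69, 4.35% held the AP-1 letters, 62.3% a GC box, 40.6% a CCAAT box, 4.35% a TATA box and 0% the interferon element. The median number of CpG dinucleotides was 20 in the promoters of members and 7 in all promoters, with 20 in Zfp185, 16 in Zfp790 and 12 in Zfp689. The members were chosen on their counts, whereas all promoters include those of genes under the minimum. Promoters of all genes tested or of the other Zfp genes were not compared, so whether these shares are particular to Zfp genes was not tested.

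Most members were expressed at low levels. Of the 402 Zfp genes, 69 had 0 counts in all libraries and 39 had a mean between 5 and 10. Of the 62 members, 32 had a mean count of 10 to 20 and 5 had a mean over 100, with a median of 18.75 against 27.5 over the 6901 genes that passed the same minimum. Just inside the minimum were Zfp473 with a mean of 10 and Zfp369 with 10.125, and just outside it were Zfp1 with 9.875 and Zfp664 with 9.75. Some members reached the minimum only through treated libraries. Examples are Zfp185 with 1 to 6, Zfp369 with 2 to 6 and Zfp473 with 3 to 9 counts in the control libraries. Counts of members that changed are thus descriptions of the 62. The minimum kept 15.4% of the Zfp genes and 13.8% of the whole table.

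Levels between genes were compared as CPM, the count scaled to a common library total after TMM normalization, divided by the kilobases of exon (CPM per kb). Zfp385c, a gene of unclear function, stood first at 187 CPM per kb, and Zfp687, a partner of the Zmynd8 chromatin reader, second at 69.3. Zfp335, a component of histone methyltransferase complexes, followed at 30.3, with Zfp276 at 27.6, Zfp428 at 26.8, Zfp784 at 24.4 and Zfp689 just behind. After them came a step to Zfp53 at 11.5, and the median of the 62 members was 3.05. On the scale of CPM not divided by length, Zfp385c alone made up 23.1% of the summed level of the members and the top 5 made up 54.8%.

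**Figure D1:**
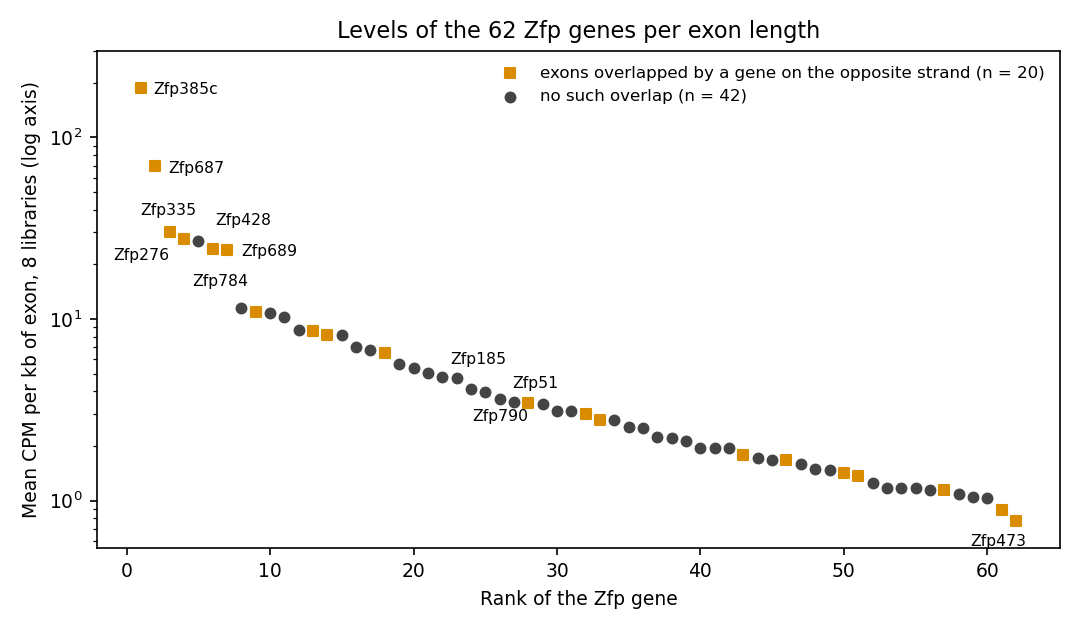
Each point is 1 of the 62 Zfp genes, placed on the x axis by its rank and on the log y axis by its mean CPM per kb of exon over the 8 libraries. Squares are genes whose exons are overlapped by a gene on the opposite strand (n = 20) and circles are the others (n = 42). Of the 7 genes with the highest levels, from Zfp385c at 187 CPM per kb down to Zfp784 at 24.4 and Zfp689, Zfp428 is the one without an overlap.

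Exons of 20 of the 62 members (32.3%) were overlapped by exons of a gene on the opposite strand, against 28 of 337 placed Zfp genes below the minimum (8.31%). By mean count, 6 of the top 7 members were overlapped (Zfp385c, Zfp687, Zfp276, Zfp335, Zfp689 and Zfp668, with Zfp710 the exception) and 14 of the other 55. For 10 of the 20, the most abundant partner had the higher mean count. A legend of the study calls the RNA-seq of vehicle and 12-HETE cells stranded, and its methods name a directional library kit. The labels name another kit, and whether reads were counted by strand is not given in the sources used here. The counts of an overlapped gene and its partner may thus not be separate, and the values of these 20 genes carry that limit. Zfp131, Zfp292, Zfp608, Zfp710 and Zfp750 shared positions, though no exon bases, with a gene on the opposite strand. For Zfp750 (mean count 35.75) this was Tbcd (56.625). The part of such genes in their counts was not tested. The overlap was 65 bases for Zfp385c with Nkiras2, 254 for Zfp687 with Pi4kb, 505 for Zfp689 with B130055M24Rik, and 1107 for Zfp335 with Pcif1. The longest, 2525 bases, was that of Zfp704 with the lincRNA C030034L19Rik. This partner fell with 12-HETE (log2 fold change −1.40, adjusted p = 9.2e-10), while Zfp704 was at −0.71 ± 0.33 (adjusted p = 0.111).

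The members were also described by the sequence of their proteins, translated from GENCODE M21 and searched by pattern. At least 2 C2H2 fingers were found in 54 of the 62, with a median of 9 fingers and a maximum of 33 in Zfp462. Zfp185, Zfp503 and Zfp36 had 0, and 5 members had 1. A KRAB box was found in 17 members (27.4%) and in 162 of the 330 other Zfp genes with a protein (49.1%), a smaller share in the members. The pattern can miss diverged KRAB boxes, such as those of Zfp37, Zfp473 and Zfp746. The members lay on 16 chromosomes, with 17 (27.4%) on chromosome 7, which held 77 (22.8%) of the other placed Zfp genes. With gaps of up to 250 kb allowed, 27 members (43.5%) lay in a run with another Zfp gene, against 224 of 337 other Zfp genes (66.5%).

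The first comparison asked which Zfp transcripts changed with 12-HETE. A call required an edgeR quasi-likelihood test with an adjusted p under 0.05 together with a 2-fold change, with the adjustment over all 6901 genes. By this rule 4 members rose (Zfp185, Zfp473, Zfp689 and Zfp503) and 1, Zfp217, fell. The 4 are 6.45% of the 62, against 6.12% of all genes called higher, and the 1 is 1.61%, against 8.25% of all genes called lower. The median log2 fold change of the members was 0.06, beside 0.0044 over all genes, with 35 members above 0 and 27 below.

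Zfp185 encodes a LIM-domain protein of the actin cytoskeleton and lies at chrX:72987339-73031543 on the plus strand. Its level was 0.856 and 4.15 CPM in the vehicle libraries (1 and 5 counts) and 18.5 and 25.3 CPM in the 12-HETE libraries (26 and 33 counts). The log2 fold change was 3.06 ± 0.51 (SE, n = 2 per group, adjusted p = 1.18e-05). Both treated libraries lay far above both controls, and 1 vehicle library lay below a floor of 3 counts. The ratio of the summed normalized counts was 8.67, with an exact 95% interval of 3.75 to 24.6 that covers counting error only.

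Zfp689, a KRAB zinc finger gene with 10 fingers, lies at chr7:127442136-127449158 on the minus strand. It was at 58.2 and 66.4 CPM with vehicle and 133 and 126 CPM with 12-HETE, so the groups did not overlap. The rise was 1.05 ± 0.16 on the log2 scale (adjusted p = 2.52e-06), and was under 2-fold, at 0.96 on that scale, without vehicle replicate 4 (adjusted p = 0.000399). The gene on the other strand, B130055M24Rik, moved the opposite way, from 97 and 106 counts with vehicle to 72 and 57 with 12-HETE (log2 fold change −0.84, adjusted p = 0.0004).

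The other calls rested on fewer counts. On the minus strand of GRCm38, with positions from GENCODE M21 as for all genes here, Zfp473 lies at chr7:44731480-44751050, Zfp503 at chr14:21983959-21989601 and Zfp217 at chr2:170108643-170148103. Zfp473, whose human counterpart acts with the U7 snRNP in histone mRNA processing, was counted 19 and 14 times with 12-HETE and 7 and 3 times with vehicle (log2 fold change 1.51 ± 0.50, adjusted p = 0.021). Zfp503, an atypical zinc finger co-repressor with a role in mammary epithelium, was counted 32 and 19 times with 12-HETE and 12 and 10 times with vehicle (1.01 ± 0.38, adjusted p = 0.0422). In both genes the 12-HETE libraries lay above both vehicle libraries in CPM. Zfp473 reached the minimum only through the 12-HETE libraries. Zfp217, the mouse counterpart of a gene amplified in human breast cancer and a partner of histone demethylase complexes, was counted 10 and 14 times with 12-HETE and 22 times in each vehicle library (−1.05 ± 0.38, adjusted p = 0.0331), also without overlap.

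None of these 3 calls was made by DESeq2, which gave adjusted p = 0.224 for Zfp473, 0.306 for Zfp503 and 0.249 for Zfp217. Zfp473 also missed the threshold without vehicle replicate 5 (adjusted p = 0.286) or 12-HETE replicate 4 (0.150). Zfp503 missed it without vehicle replicate 4 (0.0950), vehicle replicate 5 (0.259) or 12-HETE replicate 4 (0.379), and Zfp217 without the same libraries (0.106, 0.0751 and 0.241).

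Without the 2-fold threshold, at an adjusted p under 0.05 alone, the counts were 8 members higher and 2 lower. These are 12.9% and 3.23% of the 62, against 15.1% and 14.2% of all genes. They included Zfp385c, Zfp687 and Zfp335, which are among the 4 members with the highest mean counts. Zfp687 was at 376 and 334 CPM with vehicle and 480 and 482 CPM with 12-HETE (log2 fold change 0.44 ± 0.10, adjusted p = 0.00108). Zfp335 was at 118 and 114 CPM with vehicle and 190 and 182 CPM with 12-HETE (0.68 ± 0.14, adjusted p = 0.000247). Both lay higher in each 12-HETE library than in either vehicle library. Their opposite-strand partners Pi4kb and Pcif1 did not pass the test, with log2 fold changes of 0.14 and 0.19 (adjusted p = 0.51 and 0.36). Zfp335 is also overlapped, over 234 bases, by the antisense gene Zfp335os, which was counted 49 and 80 times with vehicle and 101 and 97 times with 12-HETE (0.43, adjusted p = 0.103).

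Zfp276, the other member among these 4, encodes a zinc finger protein and was at 149 and 129 CPM with vehicle and 153 and 195 CPM with 12-HETE. Its 12-HETE libraries lay above both vehicle libraries, and its log2 fold change of 0.32 ± 0.14 did not pass (adjusted p = 0.0698, and 0.0231 without 12-HETE replicate 4, at 0.49). With ADAR1 p150 it was at 0.06 ± 0.14 (adjusted p = 0.812).

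Zfp385c was at 650 and 626 CPM with vehicle and 482 and 525 CPM with 12-HETE. Its log2 fold change was −0.34 ± 0.10 (adjusted p = 0.00649), while its partner Nkiras2 rose by 0.78 (adjusted p = 2.3e-05). Zfp786, a KRAB gene, rose by 0.83 ± 0.25 (adjusted p = 0.0106). Zfp750, a transcription factor of epidermal differentiation, rose by 0.77 ± 0.29 (adjusted p = 0.0429). Without vehicle replicate 5, Zfp687 was at an adjusted p of 0.152, Zfp385c at 0.0508 without vehicle replicate 4 and at 0.107 without 12-HETE replicate 4, and Zfp750 was past the threshold in none of the 4 fits that left out a library of this comparison (adjusted p from 0.103 to 0.191).

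Irrespective of any test, both 12-HETE libraries lay above both vehicle libraries in 21 members (33.9%, against 32.9% of all genes) and below both in 22 (35.5%, against 31.2%).

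**Figure D2:**
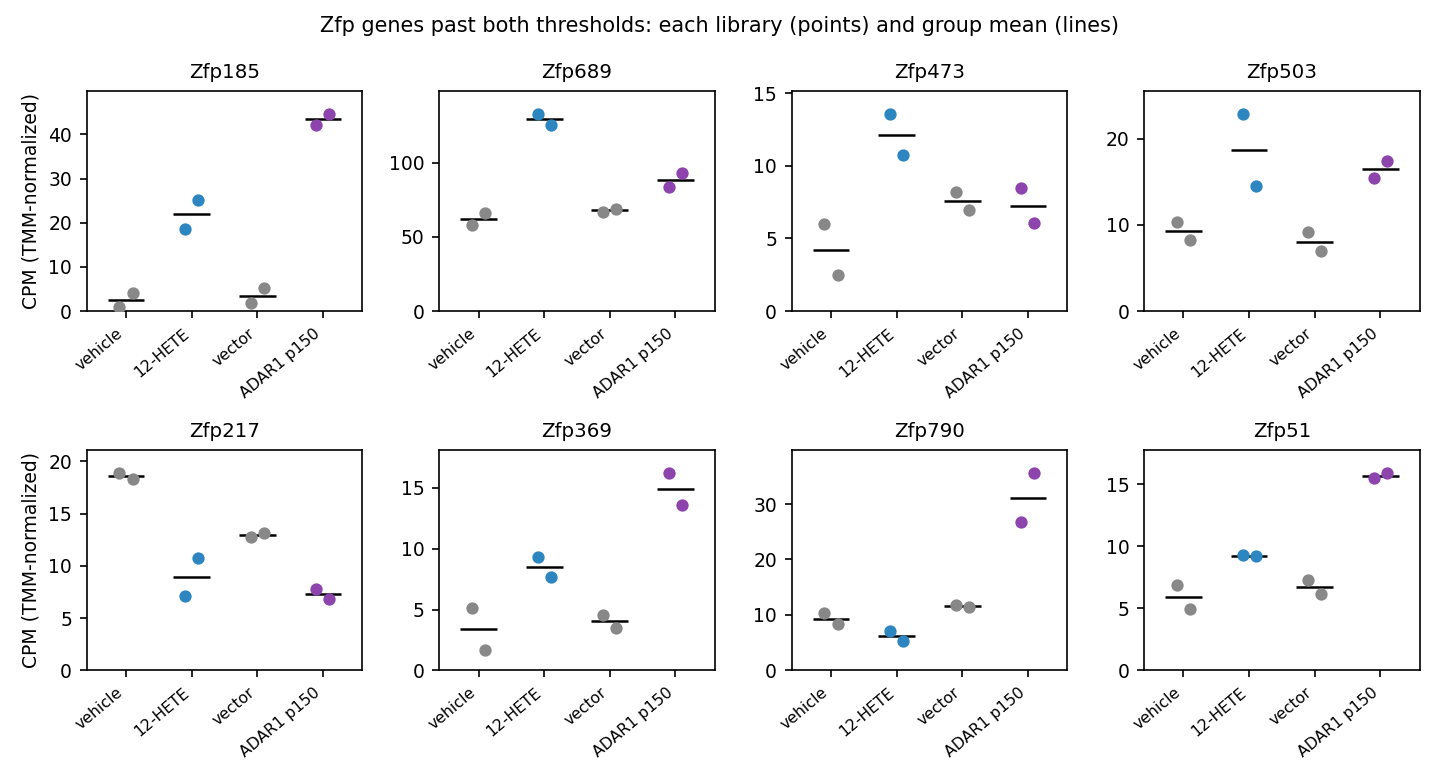
CPM after TMM normalization (y axes, from 0) of the 8 Zfp genes called in either treatment comparison, by group on the x axes, with 1 point per library and a line at the mean of 2. Zfp185 is below 6 CPM in the 4 control libraries, between 18.5 and 25.3 with 12-HETE and between 42.2 and 44.6 with ADAR1 p150. Zfp790 is high in the ADAR1 p150 libraries and not in those with 12-HETE.

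The second comparison asked which Zfp transcripts changed when ADAR1 p150 was overexpressed. By the same rule 4 members rose (Zfp185, Zfp369, Zfp790 and Zfp51), which is 6.45% of the 62 against 8.11% of all genes. By edgeR 0 members fell, against 4.69% of all genes, with 2 members lower at an unadjusted p under 0.05 and 0 called lower by DESeq2. The median log2 fold change of the members was 0.16, beside 0.07 over all genes, with 40 members above 0 and 22 below.

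Zfp185 was at 1.83 and 5.24 CPM with vector (2 and 6 counts) and at 42.2 and 44.6 CPM with ADAR1 p150 (60 and 59 counts). Its log2 fold change was 3.57 ± 0.42 (SE, n = 2 per group, adjusted p = 4.4e-08), the largest among the members. The ratio of the summed normalized counts was 12.1, with an exact 95% interval of 5.94 to 28.6 for counting error, and 1 vector library lay below 3 counts. Zfp185 was the only member called in both comparisons, beside 2.09% of all genes called higher in both and 2.48% called lower in both. Its levels in the 2 control groups overlapped.

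The other 3 genes that rose are KRAB zinc finger genes. Zfp790 (chr7:29816114-29831005, plus strand, 12 fingers) was at 26.7 and 35.5 CPM in the ADAR1 p150 libraries (38 and 47 counts) and at 11.9 and 11.4 CPM in the vector libraries (13 counts each). Its log2 fold change was 1.41 ± 0.33 (adjusted p = 0.0015). Zfp369 (chr13:65278814-65304221, plus strand, 5 fingers), a relative of the neurotrophin receptor interacting factor, was counted 23 and 18 times with ADAR1 p150 and 5 and 4 times with vector (1.87 ± 0.49, adjusted p = 0.00446). Zfp51 (chr17:21450374-21465587, plus strand, 19 fingers) was counted 22 and 21 times with ADAR1 p150 and 8 and 7 times with vector (1.21 ± 0.42, adjusted p = 0.0301). For each of the 3, both ADAR1 p150 libraries lay above both vector libraries, and no gene overlapped their exons on the other strand.

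DESeq2 did not call these 3 genes. It gave an adjusted p of 0.0796 for Zfp790 and 0.309 for Zfp51, and none for Zfp369. Zfp369 with 12-HETE was at 1.31 ± 0.57 (adjusted p = 0.0799, and 0.0417 without vehicle replicate 4). Without vector replicate 2, its ADAR1 p150 value was at an adjusted p of 0.0540, and Zfp51 missed the threshold without any 1 of the 4 libraries of this comparison (adjusted p from 0.0787 to 0.171). Because KRAB genes are repeated in the genome with similar finger sequences, reads of Zfp51, which lies in a run of 18 Zfp genes, could also be split among its neighbours, which was not tested.

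At an adjusted p under 0.05 alone, 6 members were higher and 1 lower, which is 9.68% and 1.61% of the 62 against 14.5% and 11.1% of all genes. Zfp385c was at 661 and 685 CPM with vector and 479 and 537 CPM with ADAR1 p150. Its log2 fold change was −0.41 ± 0.10 (adjusted p = 0.00155), and its groups did not overlap. Zfp385c was thus lower by less than 2-fold in both experiments, whereas Nkiras2 was not past the threshold here (log2 fold change −0.09, adjusted p = 0.71). Zfp710 (0.46 ± 0.16, adjusted p = 0.037) and Zfp428 (0.62 ± 0.23, adjusted p = 0.0493) were higher, and neither was past the threshold in DESeq2 (adjusted p = 0.344 and 0.375). Zfp428 also missed the threshold without vehicle replicate 5, either 12-HETE replicate, either vector replicate or ADAR1 p150 replicate 2 (adjusted p from 0.0589 to 0.259), and Zfp710 without vehicle replicate 5, either vector replicate or ADAR1 p150 replicate 1 (0.0800 to 0.228).

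Both ADAR1 p150 libraries lay above both vector libraries in 23 members (37.1%, against 33.7% of all genes) and below both in 11 (17.7%, against 26.3%).

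The 17 members with a KRAB box and the 45 without are set side by side here. With ADAR1 p150, 14 of the 17 KRAB genes had a log2 fold change above 0, beside 54.6% of all genes. Their median was 0.31, with a range of −1.12 (Zfp568) to 1.87 (Zfp369). Of the 17, 3 were called higher (17.6%, against 8.11% of all genes). Among these, Zfp369 had 2 to 6 counts and Zfp51 had 6 to 8 counts in the control libraries. Both reached the minimum only through treated libraries, so these numbers describe the chosen members only. Of the 45 others, 26 were above 0, with a median of 0.08, and 1, Zfp185, was called. Both ADAR1 p150 libraries lay above both vector libraries in 9 KRAB genes (52.9%, against 33.7% of all genes) and below both in 0 (against 26.3% of all genes). Among the 45 others these counts were 14 (31.1%) and 11 (24.4%).

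The summed level of the 17 KRAB genes was 377 and 363 CPM with vector and 465 and 495 CPM with ADAR1 p150. That of the other 45 was 2041 and 2111 CPM with vector and 2056 and 2139 CPM with ADAR1 p150. The KRAB sum was thus higher in each ADAR1 p150 library than in either vector library, while the sums of the others overlapped. The sum of the others includes Zfp385c, at 661 and 685 CPM with vector and 479 and 537 CPM with ADAR1 p150. With Zfp385c taken out of each sum, the rest of the 45 were also higher in each ADAR1 p150 library than in either vector library. A higher sum was thus not particular to the KRAB genes. In the other experiment the KRAB sum was 330 and 345 CPM with vehicle and 422 and 413 CPM with 12-HETE, and without Zfp689 it was 272 and 279 CPM against 290 and 287 CPM. With 12-HETE, 10 of the 17 KRAB genes were above 0, with a median of 0.05, and 25 of the 45 others, with a median of 0.08. Adding Zfp37, Zfp473 and Zfp746, a choice made after their values were seen, gave 15 of 20 above 0 with ADAR1 p150, with a median of 0.22.

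**Figure D3:**
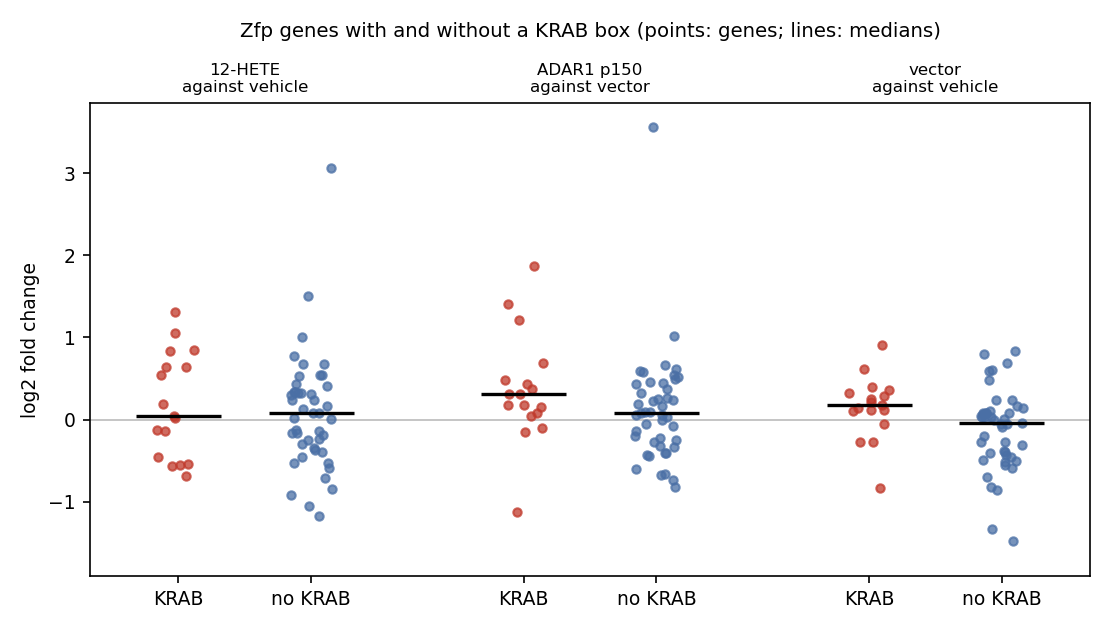
Log2 fold changes (y axis) of the 17 Zfp genes with a KRAB box (red) and the 45 without (blue) in 3 comparisons, with 1 point per gene and a line at the median. With ADAR1 p150 the median is 0.31 for the KRAB genes and 0.08 for the others, and with 12-HETE the medians are 0.05 and 0.08.

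Neighbouring KRAB genes did not all move alike. In the run of 15 Zfp genes at chr7:29768552-30169750, the 4 members Zfp790, Zfp940, Zfp568 and Zfp382 had log2 fold changes of 1.41, 0.43, −1.12 and 0.69 with ADAR1 p150, of which only that of Zfp790 passed the test. With 12-HETE the 4 values were −0.56, −0.57, −0.69 and −0.14, and none passed. Zfp568, known for silencing a placental transcript of Igf2, was counted 9 times and 1 time with ADAR1 p150 and 6 and 12 times with vector, so its value rests on 1 library. Without ADAR1 p150 replicate 1 it was at −3.25 (adjusted p = 0.0253). In the run on chromosome 17, Zfp53, in the same run as Zfp51, was at 31.0 and 38.4 CPM with vector and 42.2 and 55.2 CPM with ADAR1 p150 (0.48 ± 0.23, adjusted p = 0.122).

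The difference between the 2 effects was tested in the same fit, as the 12-HETE change minus the ADAR1 p150 change. It was called for 3 of the 62 members, beside 8.33% of all genes, and all 3 differences were below 0. At an adjusted p alone there were 5, beside 15% of all genes. Zfp790 had the largest, −1.97 ± 0.57 (adjusted p = 0.0158), with 10.3 and 8.30 CPM in the vehicle and 7.13 and 5.36 CPM in the 12-HETE libraries beside its rise with ADAR1 p150. Zfp974 was counted 10 and 6 times with 12-HETE beside 19 and 13 in its controls, and 19 and 20 times with ADAR1 p150 beside 5 and 15 in its controls, a difference of −1.85 ± 0.64 (adjusted p = 0.0466). Its 2 vector libraries stood apart from each other, at 4.56 and 13.1 CPM. Zfp428 was at 24.8 and 39.8 CPM with vehicle, 21.4 and 23.7 CPM with 12-HETE, 34.7 and 32.3 CPM with vector and 46.4 and 56.7 CPM with ADAR1 p150, a difference of −1.14 ± 0.36 (adjusted p = 0.0253).

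Each treatment effect of Zfp974 missed the threshold by itself, with log2 fold changes of −1.18 ± 0.47 (adjusted p = 0.0565) and 0.67 ± 0.44 (adjusted p = 0.283). The first of them passed without vehicle replicate 5 (adjusted p = 0.0355), vector replicate 1 (0.0442) or vector replicate 2 (0.0439). For Zfp689 the difference was 0.67 ± 0.23 (adjusted p = 0.0434), under 2-fold, with its rise of 0.38 ± 0.17 with ADAR1 p150 at an adjusted p of 0.0898. For Zfp846 it was −0.85 ± 0.28 (adjusted p = 0.0356). For Zfp185 it was −0.51 ± 0.87 (adjusted p = 0.766), an error too wide to tell whether the rises differed in size. DESeq2 called 0 differences, and edgeR called 0 without 12-HETE replicate 5 or without ADAR1 p150 replicate 2, and 1 without vehicle replicate 4 or 12-HETE replicate 4.

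**Figure D4:**
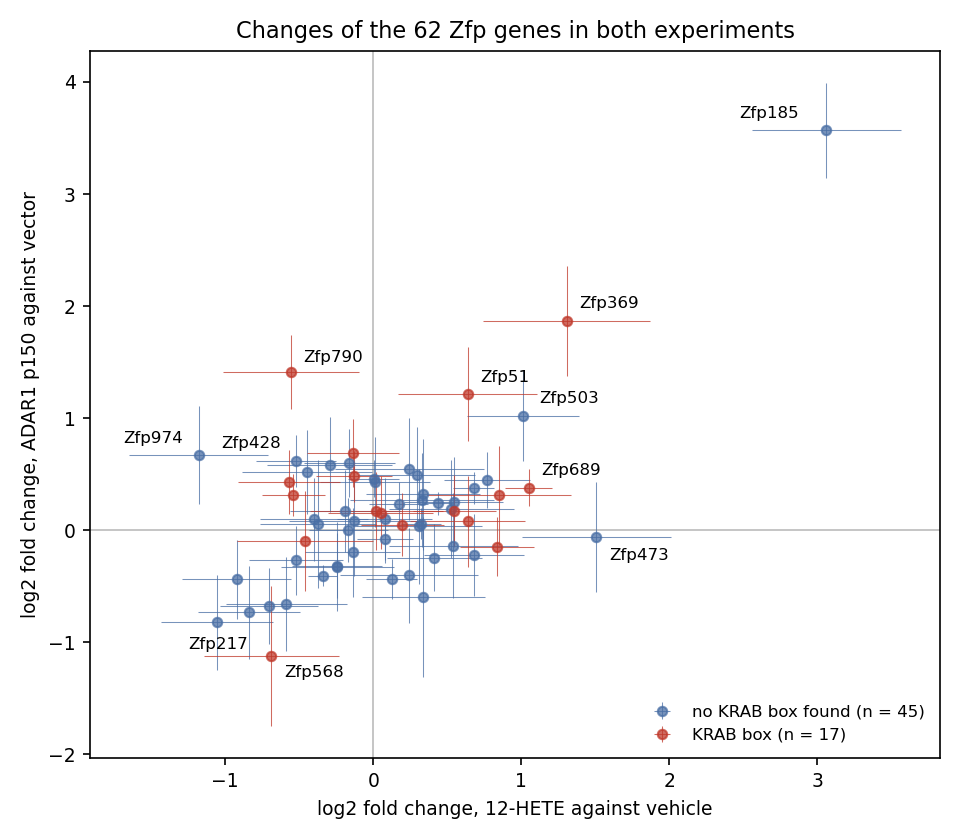
Log2 fold change with 12-HETE (x axis) against that with ADAR1 p150 (y axis) for the 62 Zfp genes, with standard errors as bars, red for the 17 with a KRAB box and blue for the 45 without. Zfp185 stands at 3.06 and 3.57, while Zfp790 lies at −0.56 and 1.41 and Zfp473 at 1.51 and −0.06.

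Vector and vehicle cells are both controls, but from different experiments, so the comparison also holds any difference between the experiments. By edgeR 0 members were called, against 0.0435% of all genes, with 6 members past an unadjusted p of 0.05 and 0 called by DESeq2. The largest value was that of Zfp646, which was counted 6 and 5 times with vector and 15 and 18 times with vehicle (log2 fold change −1.48 ± 0.48, adjusted p = 0.222).

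Members with known roles outside KRAB silencing were read as groups. Of 9 listed partners of chromatin complexes 5 were members. With 12-HETE, Zfp687 and Zfp335 rose at an adjusted p under 0.05 and Zfp217 fell, beside 15.1% of all genes higher and 14.2% lower. The limits of the Zfp687 and Zfp217 values are those given above. Zfp462 and Zfp131 passed in neither comparison, with log2 fold changes of 0.41 and −0.52 with 12-HETE. With ADAR1 p150 none of the 5 passed, with a range of −0.82 (Zfp217) to 0.37 (Zfp335, adjusted p = 0.0503, and 0.0169 without vector replicate 1 or 0.0335 without ADAR1 p150 replicate 1). Of 18 listed transcription factors 5 were members, of which Zfp503 was called higher with 12-HETE and Zfp750 was past the adjusted p alone, at 0.77. Zfp384, Zfp516 and Zfp668, a factor linked to DNA repair, did not pass (−0.59, 0.54 and 0.12). With ADAR1 p150, Zfp503 was at 9.13 and 6.99 CPM with vector and 15.5 and 17.4 CPM with ADAR1 p150, a value of 1.02 ± 0.41 that did not pass (adjusted p = 0.062).

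The members on the lists of mRNA decay, RNA binding and SUMO ligation did not pass the test in either comparison. Zfp473, called higher with 12-HETE, was on none of these lists. Zfp36, which encodes tristetraprolin, a protein that marks AU-rich mRNAs for decay, was the only member of 3 listed decay factors and had 7 to 15 counts per library (log2 fold changes −0.13 ± 0.44 and 0.08 ± 0.49). The RNA-binding Zfp106, the spliceosome and spindle factor Zfp207 and the ribosome biogenesis factor Zfp622 were between 0.08 and 0.54 with 12-HETE and between −0.08 and 0.32 with ADAR1 p150. The SUMO ligase Zfp451 was at 0.08 ± 0.32 and 0.10 ± 0.37. Of 7 listed KRAB genes of imprints and retroelements 3 were members and none passed. Zfp809, which binds the primer site of proviruses, was at 0.55 ± 0.28 for 12-HETE and 0.17 ± 0.32 for ADAR1 p150, and the imprint factor Zfp445 was at −0.46 ± 0.46 and −0.10 ± 0.44.

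The co-repressor genes through which KRAB proteins act were read from a list of 33, of which 32 were in the table under these symbols and 25 passed the minimum. The list held Fam208a and Tasor, which are older and newer symbols of the same gene, and the table held Tasor. Of the 25, 2 rose with 12-HETE, beside 6.12% of all genes called higher. Both, Hdac2 and Pphln1, reached the minimum only through their 12-HETE libraries, so this count and the medians below describe the chosen genes only. In the other libraries Hdac2 had 5 to 15 and Pphln1 2 to 11 counts. The histone deacetylase gene Hdac2 was counted 34 and 17 times with 12-HETE and 8 and 11 times with vehicle (1.22 ± 0.42, adjusted p = 0.0266), and Pphln1, a subunit of the HUSH silencing complex, was counted 25 and 19 against 4 and 8 times (1.66 ± 0.49, adjusted p = 0.00909). With ADAR1 p150, beside 4.69% of all genes called lower, 1 of the 25 was called lower, the TRIM28 relative Trim24, counted 16 and 11 times with ADAR1 p150 and 32 and 34 times with vector (−1.57 ± 0.35, adjusted p = 0.000799). The 12-HETE libraries stood apart for Hdac2, at 24.3 and 13.0 CPM. Values of these co-repressor calls under DESeq2 or without 1 library are not given here. At an adjusted p alone, Sumo2 (0.78, adjusted p = 0.000575) and the heterochromatin protein gene Cbx5 (0.57, adjusted p = 0.0311) were higher with 12-HETE. Tasor (−0.50 ± 0.15, adjusted p = 0.00996) and the DNA methyltransferase gene Dnmt1 (−0.79, adjusted p = 0.0402) were lower with ADAR1 p150. The medians over the 25 were 0.32 and −0.09, beside 0.0044 and 0.07 over all genes. Trim28 itself was counted 39 and 27 times with 12-HETE beside 18 and 23 in its controls, and 23 and 8 times with ADAR1 p150 beside 9 and 13, and did not pass (0.49 ± 0.34 and 0.20 ± 0.44).

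The counts set how small a change could be seen. For the 32 members with a mean count of 10 to 20, the standard errors of the log2 fold changes had a median of 0.42 in either experiment. For the 5 with a mean over 100 it was 0.14 in both. A member that passed neither threshold was not detectably changed at this depth. In bulk libraries, less RNA per cell and fewer cells that express a gene cannot be told apart.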

How the data were processed

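RNA-seq of EO771 cells comprised 8 libraries: vehicle, 12-HETE, vector and ADAR1 p150, with 2 each. The authors deposited raw counts per gene. The study's methods name prinseq for the removal of duplicates, STAR for alignment (GRCm38) and featureCounts for counting. The labels name another extraction and library kit than the methods. Duplicate removal lowers the counts of abundant genes most.

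A minimum mean count of 10 left 6901 of 49997 genes. One edgeR 4.0.16 quasi-likelihood fit (with R 4.3.3 and limma 3.58.1) covered the 8 libraries, with TMM factors and a coefficient per group. Adjusted p-values follow Benjamini and Hochberg over all 6901 genes, and a call needed both an adjusted p under 0.05 and a change of at least 2-fold. Standard errors are the log2 fold change divided by the square root of F. The fit was tested on simulated data. The alternatives were DESeq2 1.42.0, no minimum, RLE factors, at least 10 counts in each library, a replicate block, a fit of 4 libraries, leaving out each library, and adjusted p alone. The crossed replicate block and the changed KRAB groups were chosen after seeing the data.

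The Zfp genes, the lists and the tests were chosen with earlier results of these data known. Zfp genes named in full were the called ones with groups that did not overlap (at most 8 in each direction), the 6 with the highest mean count, those called in both comparisons, in the difference or between controls, members of the role lists, the 2 on either side of the minimum, and called co-repressor genes. Other Zfp genes were named after their values were seen. Fingers and KRAB boxes were found by regular expressions in the longest protein of GENCODE M21 (GRCm38), which held 399 of the 402 Zfp symbols. Promoter sequences are from RefSeq. Editing levels were not analysed here.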

Additional observations from a re-analysis of the deposited data

Results flagged for a closer look

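The changes of 3 Zfp genes differed between the experiments in a test of the difference itself, the 12-HETE effect minus the ADAR1 p150 effect: −1.14 for Zfp428, −1.97 for Zfp790 and −1.85 for Zfp974 on the log2 scale. For Zfp790 and Zfp428 both treated libraries lay below both controls with 12-HETE and above both with ADAR1 p150, and the same holds for Zfp974. The experiment and the treatment cannot be told apart in this design. Groups of 2 libraries were too small to test for a library that stands apart.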

How the results depend on the processing

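Zfp185 kept both calls and their direction under every alternative that tested it. The 12-HETE rise of Zfp689 stayed past the adjusted p in all of them and was under 2-fold with no minimum (0.9985) and without vehicle replicate 4 (0.96). That of Zfp503 was under 2-fold with RLE factors (0.986) and in the fit of 4 libraries (0.984). With DESeq2 the counts of members called were 2 higher and 0 lower with 12-HETE (4 and 1 by edgeR), 1 higher with ADAR1 p150 (4) and 0 differences (3). A minimum of 10 counts in every library left 33 members, without Zfp185, Zfp369, Zfp790 and Zfp51, and gave 1 and 0 with 12-HETE, 0 higher with ADAR1 p150 and 1 difference. With no minimum there were 1 and 0 with 12-HETE and 0 differences, and the median with ADAR1 p150 was 0.0584. RLE factors and the fit of 4 libraries each gave 2 lower with 12-HETE. Adjusted p alone gave 8 and 2 with 12-HETE, 1 lower with ADAR1 p150 and 5 differences.

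Same-numbered libraries did not deviate together (correlations of −0.0648 in the 12-HETE and −0.172 in the ADAR1 p150 experiment over 2218 genes). With 2 libraries per group, this cannot tell whether any of them were processed together. With the replicate block 3 members were higher and 0 lower with 12-HETE, 3 were higher with ADAR1 p150 and 2 differed. The replicate block with crossed pairs in the ADAR1 p150 experiment gave 5 members higher with ADAR1 p150 and 3 differences.

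Leaving out a library gave 2 to 4 higher and 0 to 2 lower with 12-HETE, 2 to 4 higher and 0 to 1 lower with ADAR1 p150, and 0 to 3 differences. The medians were then −0.0604 to 0.154 for 12-HETE, and 0.0975 to 0.252 for ADAR1 p150. For single named genes and the adjusted p alone, 307 of the values under other settings stayed on their side of 0.05, 27 lost it and 7 passed it. A further 3 called values kept the adjusted p and were under 2-fold. The 6 values to which DESeq2 gave no adjusted p were left out. When a library was left out these counts were 424, 30 and 10, with 1 further called value that kept the adjusted p under 2-fold. No value that passed the test changed direction. The causes were not tested.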
